A study of Homo sapiens with 6 samples.

Results

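The clustered protocadherin genes were analysed in human embryonic stem cells that had been converted from the primed to the naive state of pluripotency. The members were chosen by name alone, as every gene called PCDHA, PCDHB, PCDHGA, PCDHGB or PCDHGC followed by a number, with PCDHAC1 and PCDHAC2 added. This gave 54 of the 48183 gene names in the count table, of which 16 belong to the alpha cluster, 16 to the beta cluster and 22 to the gamma cluster. The alpha names include PCDHA14, which is annotated as a pseudogene, and the gamma names divide into 12 of type A, 7 of type B and 3 of type C. PCDHAC1, PCDHAC2, PCDHGC3, PCDHGC4 and PCDHGC5 are the 5 C-type genes.

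Clustered protocadherins are transmembrane adhesion molecules of the cadherin superfamily, best known from neurons, where each cell uses its own small choice of them and so carries a surface label that distinguishes it from its neighbours. In the alpha and gamma clusters every gene has its own promoter and its own large first exon, which encodes the extracellular part and is spliced to exons that the whole cluster shares, whereas beta genes consist of 1 exon. Most of the promoters carry a short conserved element with the core CGCT that CTCF binds, and CTCF and cohesin fold a chosen promoter onto a distant enhancer. DNA methylation keeps promoters that are not chosen silent, while the C-type genes are in many neurons expressed by every cell.

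Bulk RNA-seq of 6 libraries was used, 4 from naive and 2 from primed cells. The primed libraries were 1 of the untreated EOS line, which carries a GFP reporter of naive-type Oct4 enhancer use, and 1 of the untreated CA-p38 EOS line, which carries in addition a constitutively active p38 kinase under doxycycline control. The naive libraries were 2 of EOS cells induced with the AMPK activator AICAR (AICAR 1 and AICAR 2), 1 of CA-p38 EOS cells induced with doxycycline (CA-p38) and 1 of EOS cells induced with the histone deacetylase inhibitor valproic acid (VPA). All came from 1 human embryonic stem cell line, which the sample labels call H1 and the study's text H9. Primed cells were grown on Matrigel in StemFit AK02N, while naive cells were kept in PXGL medium and sorted for CD75 and SUSD2. The study's methods give mouse embryonic fibroblast feeders for naive cells, but its text also reports a move of CA-p38 cells to feeder-free culture. Naive cells had been passaged repeatedly since induction, with AICAR and doxycycline removed. State, medium, feeder, sort and passages since induction therefore cannot be told apart. The study's text gives the AICAR samples as different passages, without saying whether they came from separate inductions. P-values measure only the spread between these libraries, which for the AICAR pair may be technical in part. In bulk RNA, fewer cells that express a gene and less RNA per cell cannot be told apart.

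Total counts ran from 46823699 to 54277064 per library, and the members together took 5860 to 7434 counts in the naive and 11392 and 13376 counts in the primed libraries. A count of 0 allows a level of up to 0.0553 to 0.0641 CPM by library (3 counts, for counting error only). Marker genes followed the labels, in that all 10 naive markers examined (among them KLF17, DPPA3 and DPPA5) were called higher and all 10 primed markers (among them SFRP2, ZIC2 and DUSP6) lower in naive. Over all genes tested, 26% were called higher and 27% lower in naive, to be set beside the counts of markers that follow. Of 12 neural markers, 3 were called higher and 5 lower in naive, and their summed level was 276 to 314 CPM in naive and 564 to 662 CPM in primed libraries. NES, an intermediate filament of neural progenitors that stem cells also express, made up 426 and 507 CPM of the primed sums, while the neural transcription factors PAX6 and SOX1 reached at most 1.29 and 1.68 CPM in any library. Of 8 fibroblast markers, 4 were called lower and 1 higher in naive, with summed levels of 50.9 to 92.7 CPM in naive and 192 to 209.7 CPM in primed libraries, and the collagens COL1A1 (mean 59.8 CPM) and COL1A2 (117 CPM) made up most of the primed sums. TWIST1 was the fibroblast marker called higher, with a log2 fold change of 5.96. Of 6 trophectoderm markers tested, 4 were called higher and none lower, with sums over 8 markers of 23.2 to 25.1 CPM in naive and 4.14 to 5.48 CPM in primed libraries. Of 8 endoderm markers, 5 were called lower and 1 (GATA4) higher, with sums of 41.8 to 49.4 CPM in naive and 156 to 189 CPM in primed libraries, of which the collagen COL4A1 made up most. FOXA2 reached 21.4 CPM in primed CA-p38 against 5.35 CPM in primed EOS. The part of these cell types in the members' levels was not tested.

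The 3 clusters lie one after the other on chromosome 5, in GENCODE release 44 coordinates of GRCh38. The alpha cluster spans chr5:140786136-141012347 (226 kb), the beta cluster chr5:141051374-141249365 (198 kb) and the gamma cluster chr5:141330514-141512977 (182 kb), all on the plus strand. In the alpha cluster 15 members share 3 exons of 59, 89 and 2721 bases, and in the gamma cluster all 22 members share 3 exons of 59, 89 and 2029 bases. A read that lies wholly in a shared exon matches every member of its cluster that uses the exon, and how such reads were assigned is not stated, so levels of single alpha and gamma members are uncertain to that extent. Beta members share no exon. Whether strand was used in counting is not stated either, and reads of an antisense transcript may be included. An annotated antisense transcript covers 100% of the own exon of PCDHA1 and 43.7% of that of PCDHB2, and at most 23.6% of that of any other member.

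Promoters were available from RefSeq (GRCh38.p14, 250 bases before to 50 after the gene's start) for 47 of the 54 members, of which 13 were alpha, 14 beta and 20 gamma genes. The windows that follow are shown because they hold a match to a searched motif ending in CGCT, in members on which the results turn. Matched letters are in capitals, and whether CTCF binds these windows was not tested.
PCDHA4 at chr5:140806978-140807004, plus strand: ttggagccacatGATGTCGCTctttac
PCDHA8 at chr5:140841129-140841155, plus strand: ttgaagccacatGATGTCGCTgtctac
PCDHA10 at chr5:140855840-140855866, plus strand: ctaaagccaccgGATGTCGCTgtcgtc
PCDHA12 at chr5:140875243-140875269, plus strand: aatcagtcacatGATGTCGCTctacac
PCDHA11 at chr5:140868883-140868908, plus strand: tttaggcgcaagGTGTCGCTctttac
PCDHB1 at chr5:141051274-141051299, plus strand: gactggggagttGAGTCGCTcaatgc
PCDHB2 at chr5:141094543-141094569, plus strand: gaagagacgcggGGTGGCGCTgcagcc
PCDHB3 at chr5:141100392-141100418, plus strand: aagcgaacgcatGGTGGCGCTgttgac
PCDHB5 at chr5:141135178-141135204, plus strand: attaggacgcctGGTGGCGCTgcaggc
PCDHB8 at chr5:141177776-141177802, plus strand: gtgaggacccgtGGTGGCGCTgcagga
PCDHB10 at chr5:141192298-141192324, plus strand: tggaggccacacGGTGGCGCTgcaggc
PCDHB13 at chr5:141213864-141213890, plus strand: gtgaggacgcgtGGTGGCGCTgcagga
PCDHGA6 at chr5:141373835-141373860, plus strand: ttaggactctaaGCGTCGCTgttgac
PCDHGB6 at chr5:141407924-141407949, plus strand: cggagcctctggGCGCCGCTgtcggc
PCDHGC3 at chr5:141475880-141475905, plus strand: ctgggactctgtGTGCCGCTgtcggc
PCDHGC4 at chr5:141484952-141484977, plus strand: ggctgagcccggGAGCCGCTgtctgc

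The motifs found differed between the clusters. The letters GNNGGCGCT, searched on both strands, were found in 13 of 14 beta promoters (all but that of PCDHB1), in 2 of 20 gamma promoters and in 0 of 13 alpha promoters, against 9.49% of all 35116 promoters in the table. In the beta genes the match began 2 to 84 bases before the annotated start. In the gamma genes (PCDHGB4 and PCDHGB5) it lay on the minus strand and after the annotated start, unlike in the beta genes. A pair of further motifs was chosen after these windows had been read. GATGTCGCT was found in 9 of 13 alpha promoters, 43 to 86 bases before the start, in no beta or gamma promoter, and in 0.105% of all promoters. GNGNCGCT overlaps the beta matches of the first motif. It was found in all 14 beta promoters, 19 of 20 gamma promoters and 1 of 13 alpha promoters (PCDHA11), against 19.9% of all promoters. The printed windows of PCDHA11, PCDHB1, PCDHGA6, PCDHGB6, PCDHGC3 and PCDHGC4 match this wider motif only. Among alpha genes with a promoter, PCDHA9, PCDHA11, PCDHAC1 and PCDHAC2 did not hold GATGTCGCT, and PCDHGB7 was the gamma gene without GNGNCGCT. Both the alpha gene that was not called between the states (PCDHA9) and the one with the lowest fold (PCDHAC2) were among the promoters without GATGTCGCT.

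The summed level of the alpha cluster was much lower in naive than in primed libraries, whereas the beta and gamma sums differed less. Alpha members summed to 15.8 CPM (AICAR 1), 21.4 CPM (AICAR 2), 16.6 CPM (CA-p38) and 12 CPM (VPA) in naive cells. They reached 77 CPM in primed EOS cells and 92.1 CPM in the primed line with CA-p38. The primed mean was 5.15 times the naive mean (84.5 ± 10.7 against 16.4 ± 3.88 CPM, SD, n = 2 and 4), and the groups did not overlap. CPM are counts scaled to the library total with TMM factors, and sums over the chosen members were given no test. In the same order of libraries, beta members summed to 33.8, 45.7, 42.1 and 35.1 CPM in naive and 48.0 and 60.4 CPM in primed, a primed mean 1.38 times the naive mean. Gamma members summed to 59.3, 82.5, 73.5 and 64.8 CPM in naive and 105 and 121 CPM in primed, a primed mean 1.61 times the naive mean. Every naive sum lay below both primed sums in each of the 3 clusters, but in the beta cluster AICAR 2 (45.7 CPM) came close to primed EOS (48.0 CPM). AICAR 2 had the highest naive sum in all 3 clusters.

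**Figure D1:**
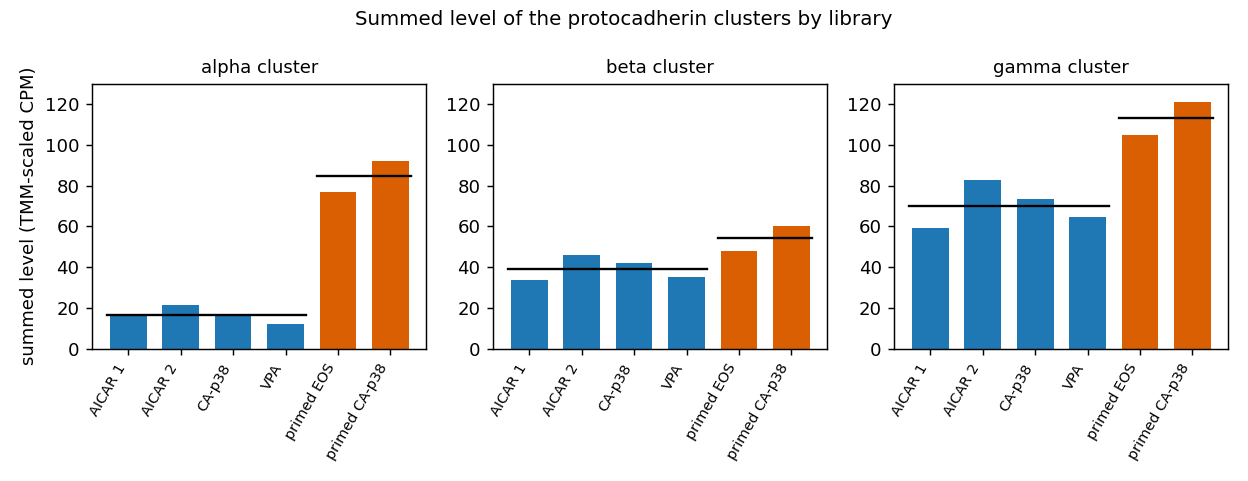
Summed TMM-scaled CPM (vertical axis) of the alpha, beta and gamma members in each library, blue bars for the 4 naive and orange bars for the 2 primed libraries, with black lines at the group means. The alpha sums stood at 12 to 21.4 CPM in naive and 77 and 92.1 CPM in primed libraries, while the beta sums of the groups lay close to each other.

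The part of the clusters in all members' counts shifted accordingly. Alpha members held 33.5% (95% exact binomial interval 32.6 to 34.4) and 33.7% (32.9 to 34.5) of the members' counts in the primed EOS and CA-p38 EOS lines. In AICAR 1, AICAR 2, CA-p38 and VPA they held 14.5% (13.6 to 15.4), 14.3% (13.5 to 15.1), 12.5% (11.8 to 13.4) and 10.7% (9.90 to 11.5). Beta members held 30.6% to 31.8% in naive and 20.9% and 22.1% in primed libraries, and gamma members 54.5% to 58.0% in naive and 45.6% and 44.2% in primed libraries. These intervals cover counting error only. Within the gamma cluster the summed levels of types A and B moved in opposite directions, and a few genes carried this. Type A members summed to 39.4, 54.7, 47.8 and 41.5 CPM in naive and 29.8 and 34.6 CPM in primed libraries, and type B members to 15.9, 21.7, 19.3 and 17.2 CPM in naive and 58.9 and 67.3 CPM in primed libraries. Without PCDHGA6 the other 11 type A members had a naive mean of 27.9 ± 3.21 CPM (SD, n = 4) and a primed mean of 27.4 ± 1.46 CPM (SD, n = 2). Without PCDHGB7 and PCDHGB6 the other 5 type B members had means of 13.5 ± 2.27 and 13.9 ± 1.63 CPM. The 5 C-type genes summed to 4.23, 6.96, 6.88 and 6.21 CPM in naive and 33.0 and 40.8 CPM in primed libraries, a primed mean 6.08 times the naive mean.

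Fewer alpha genes were detected at an appreciable level in naive cells. A level of at least 1 CPM was reached by 4 to 7 of 16 alpha genes in the naive libraries (most in AICAR 2) and by 14 and 15 of them in the primed libraries. The number of beta genes at that level was 9 to 11 in naive and 10 in each primed library, of 16. For gamma genes it was 16 or 17 in naive and 22 in both primed libraries, of 22.

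Naive and primed libraries were compared gene by gene by the quasi-likelihood test of edgeR on 26497 genes, and a gene was called when its Benjamini-Hochberg adjusted p over the whole table was under 0.05. Over all genes 53.1% were called, 26% higher and 27% lower in naive, and the median log2 fold change was 0.11. Of the 54 members 53 passed the filter on low counts, and 6 were called higher, 27 lower and 20 in neither direction. The alpha cluster had 15 members called lower (93.8%), none higher and 1 not called, and its median log2 fold change was -2.54. Of these, PCDHA2, PCDHA6, PCDHA8, PCDHA14 and PCDHAC2 passed the filter only through the primed libraries. For them hardly any call but lower was possible. The beta cluster had 4 called higher (26.7%), 4 lower and 7 not called among 15 tested, with a median of -0.12, and the gamma cluster 2 higher (9.09%), 8 lower (36.4%) and 12 not called, with a median of -0.08. Among type A gamma genes 2 were called higher and 3 lower of 12 (median 0.29), and among type B genes none higher and 3 lower of 7 (median -0.20). The beta shares lay close to the shares over all genes. The alpha share of lower calls lay far above that over all genes, with the members that passed only through the primed libraries included. The naive and primed values of 38 of 53 tested members did not overlap, 18.9% with naive above and 52.8% below. Over all genes 64.9% did not overlap, 32.9% above and 32.1% below. By cluster these members were 15 alpha genes (all below), 9 beta genes (5 above) and 14 gamma genes (5 above). Of tested genes, 93.8% of alpha lay below, 33.3% of beta above and 26.7% below, and 22.7% of gamma above and 40.9% below. No test between the clusters was made.

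**Figure D2:**
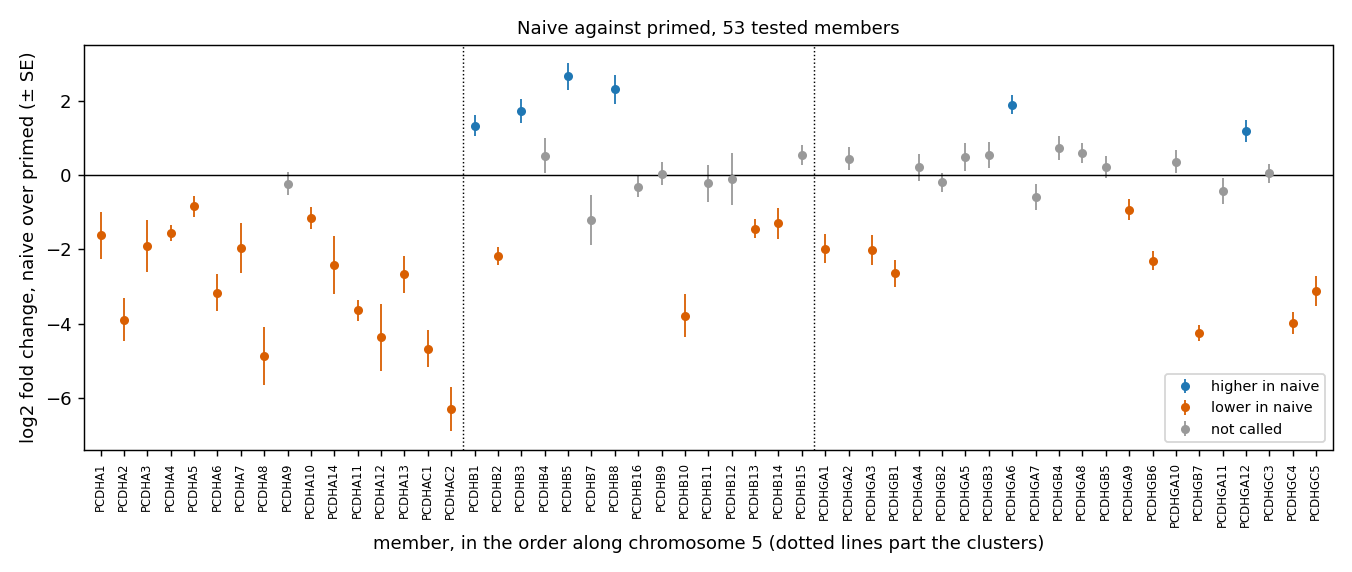
Fitted log2 fold change of naive over primed with its standard error (vertical axis) for the 53 tested members in their order along chromosome 5, with dotted lines between the clusters. Blue points were called higher in naive (6), orange points lower (27) and grey points in neither direction (20), and every alpha gene but PCDHA9 is orange.

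The alpha genes with the highest mean level were PCDHA4, PCDHA11, PCDHA10 and PCDHA12. From here on values are given in the order AICAR 1, AICAR 2, CA-p38 and VPA for naive, and primed EOS and primed CA-p38 for primed libraries. PCDHA4 was at 5.39, 6.34, 6.11 and 3.84 CPM in naive and 15.2 and 16.8 CPM in primed libraries. All 4 naive values were low and close to each other, and the gene fell with a log2 fold change of -1.56 (SE 0.22, edgeR adjusted p = 4.76e-05). PCDHA10 was at 4.29, 4.13, 2.41 and 2.39 CPM in naive and 7.45 and 7.36 CPM in primed libraries. Both AICAR libraries were above CA-p38 and VPA, but the groups did not overlap, and the log2 fold change was -1.16 (SE 0.29, edgeR adjusted p = 0.00402). These genes were the main remaining alpha transcripts of naive cells, where PCDHA4 held 34.1%, 29.6%, 36.9% and 32.1% of the alpha counts, against 19.7% and 18.2% in primed libraries. For PCDHA4 the exact binomial intervals of these shares reached down to 26.9% in naive and up to 21.0% in primed libraries.

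PCDHA11 and PCDHA12 lie next to each other toward the far end of the row of alternate alpha exons. In primed cells they stood at 4.80 and 4.63 CPM per kb of their own exon, against 6.38 for PCDHA4, with any reads counted in shared exons included. PCDHA11 was at 0.625, 1.17, 1.21 and 0.917 CPM in naive and 10.5 and 13.8 CPM in primed libraries, which gave a log2 fold change of -3.64 (SE 0.29, edgeR adjusted p = 2.33e-07). PCDHA12 was at 0, 1.55, 0.712 and 0.0191 CPM in naive and 10.9 and 12.5 CPM in primed libraries. The naive libraries were far apart for this gene, with 77 counts in AICAR 2 and 36 in CA-p38 but 1 in VPA and 0 in AICAR 1, where a count of 0 allows up to 0.0553 CPM. Its log2 fold change was -4.37 (SE 0.89, edgeR adjusted p = 0.000934), and under the DESeq2 Wald test the adjusted p was 0.07. The size of the fold was not settled either, at -5.60 without AICAR 2 and -6.56 by limma-voom. PCDHA8, the alternate gene with the lowest fold, was at 0, 0.121, 0.0396 and 0.0382 CPM in naive and 1.35 and 1.64 CPM in primed libraries. At most 6 counts were found in any naive library for PCDHA8, and its log2 fold change was -4.87 (SE 0.79, edgeR adjusted p = 8.07e-05), or -5.74 without AICAR 2.

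The alpha C-type genes, which in neurons are under other control than the alternate genes, were both under 0.5 CPM in every naive library. PCDHAC1 was at 0.166, 0.483, 0.415 and 0.0764 CPM in naive and 6.06 and 8.46 CPM in primed libraries, which gave a log2 fold change of -4.67 (SE 0.49, edgeR adjusted p = 2.99e-06). PCDHAC2 was at 0.0552, 0.423, 0.119 and 0.0191 CPM in naive and 10.7 and 13.3 CPM in primed libraries. The naive values of PCDHAC2 rested on 3, 21, 6 and 1 counts, while the primed libraries held 531 and 651, and the log2 fold change of -6.29 was the lowest of all members (SE 0.60, edgeR adjusted p = 8.97e-07). Without AICAR 2, which held 21 of its naive counts, the log2 fold change of PCDHAC2 was -7.50. Its own first exon lies at chr5:140966476-140969331.

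The other alpha genes called lower were PCDHA1, PCDHA2, PCDHA3, PCDHA5, PCDHA6, PCDHA7, PCDHA13 and the pseudogene PCDHA14, with log2 fold changes from -3.89 (PCDHA2) to -0.84 (PCDHA5). Their mean levels were 0.114 to 1.90 CPM in naive and 0.63 to 3.39 CPM in primed libraries. Calls on the low end of this group were weak. PCDHA1 (adjusted p = 0.0385 in edgeR) lost its call with library totals as scaling, with the parental line as a block and without AICAR 1, and its own exon is the one fully covered by an antisense transcript. PCDHA1, PCDHA3, PCDHA7 and PCDHA14 lost their calls without either primed library, PCDHA5 without primed CA-p38 and PCDHA3 also without CA-p38. PCDHA9, the only alpha gene not called, was at 1.64, 1.77, 1.44 and 1.68 CPM in naive and 1.64 and 2.23 CPM in primed libraries. The groups overlapped, and the log2 fold change was -0.24 (SE 0.31, edgeR adjusted p = 0.534).

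**Figure D3:**
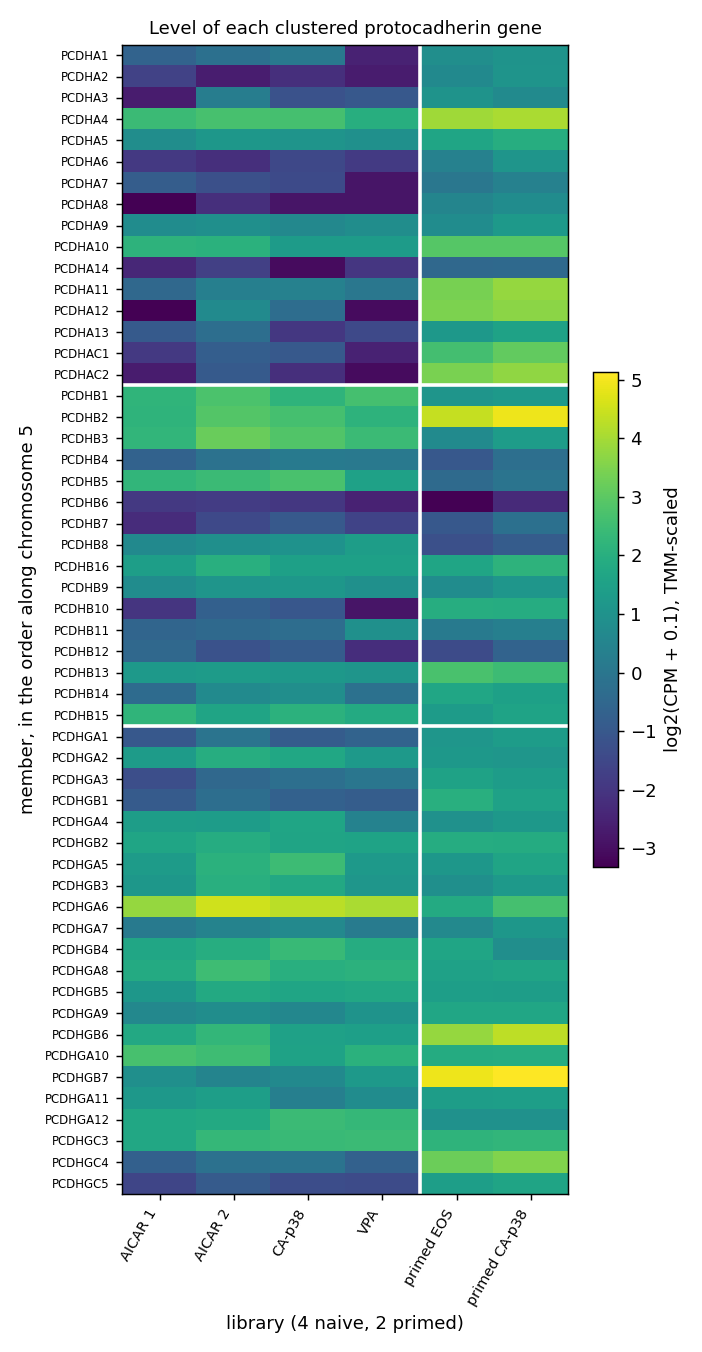
Colour gives the level of each member as log2(CPM + 0.1) in each of the 6 libraries, with members in their order along chromosome 5 from top to bottom and white lines between clusters and between states. In primed columns PCDHB2 and PCDHGB7 are brightest, in naive columns PCDHGA6, and the brightest alpha rows of the naive columns are PCDHA4 and PCDHA10.

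The beta cluster changed its leading genes with little change of its sum. PCDHB2 was at 4.47, 7.28, 6.19 and 4.32 CPM in naive and 20.9 and 29.9 CPM in primed libraries, which gave a log2 fold change of -2.19 (SE 0.24, edgeR adjusted p = 3.87e-06). It alone held 43.5% (95% exact binomial interval 41.5 to 45.5) and 49.5% (47.7 to 51.3) of the primed beta counts, against 13.2%, 15.9%, 14.7% and 12.3% of the naive ones. In naive cells the beta counts were spread over PCDHB1, PCDHB2, PCDHB3 and PCDHB5, and PCDHB3 led in AICAR 2 and CA-p38, PCDHB3 and PCDHB5 were level in AICAR 1 at 255 counts each, and PCDHB1 led in VPA. The single exon of PCDHB2 lies at chr5:141094615-141098703, and it is the one of which antisense transcripts cover 43.7%.

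The 4 beta genes called higher in naive cells were PCDHB1, PCDHB3, PCDHB5 and PCDHB8, all in the first part of the cluster. PCDHB5 was at 4.69, 5.33, 6.45 and 2.75 CPM in naive and 0.666 and 0.858 CPM in primed libraries, which gave a log2 fold change of 2.65 (SE 0.36, edgeR adjusted p = 8.25e-05). PCDHB8 was at 1.53, 1.75, 1.88 and 2.52 CPM in naive and 0.323 and 0.450 CPM in primed libraries, which gave a log2 fold change of 2.31 (SE 0.39, edgeR adjusted p = 0.000398). VPA was the lowest naive library for PCDHB5 and the highest for PCDHB8, and for neither gene did the groups overlap. PCDHB3 was at 4.69, 9.16, 7.04 and 5.33 CPM in naive and 1.55 and 2.43 CPM in primed libraries, which gave a log2 fold change of 1.72 (SE 0.31, edgeR adjusted p = 0.000812). PCDHB1, whose promoter was the one beta promoter without the GNNGGCGCT letters, was at 4.58, 6.54, 4.41 and 6.09 CPM in naive and 2.04 and 2.27 CPM in primed libraries. Its log2 fold change was 1.33 (SE 0.27, edgeR adjusted p = 0.00138).

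Besides PCDHB2, the beta genes called lower were PCDHB10, PCDHB13 and PCDHB14. PCDHB10 was at 0.147, 0.503, 0.396 and 0.0382 CPM in naive and 3.80 and 3.66 CPM in primed libraries, with 8, 25, 20 and 2 naive counts. The log2 fold change of PCDHB10 was -3.78 (SE 0.59, edgeR adjusted p = 0.000103). PCDHB13 was at 2.23, 2.39, 2.18 and 2.02 CPM in naive and 6.48 and 5.46 CPM in primed libraries, which gave a log2 fold change of -1.44 (SE 0.25, edgeR adjusted p = 0.00025). The naive values of PCDHB13 were close to each other, and the groups did not overlap for either gene. PCDHB14 had a log2 fold change of -1.30 (SE 0.41, edgeR adjusted p = 0.0139) and lost its call without primed EOS. PCDHB4, PCDHB7, PCDHB9, PCDHB11, PCDHB12, PCDHB15 and PCDHB16 were not called, with log2 fold changes from -1.21 (PCDHB7) to 0.53 (PCDHB15). PCDHB6 was not tested, since it had 9, 9, 8 and 4 counts in naive and 0 and 5 in primed libraries.

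Along the beta cluster the 4 members called higher all lie before PCDHB10, PCDHB13 and PCDHB14, which were called lower. PCDHB2, also called lower, lies between PCDHB1 and PCDHB3, both called higher. The pseudogene PCDHB18P, no member by the rule, begins after PCDHB14 at chr5:141234551 and was called higher (log2 fold change 2.71, SE 0.76). The order of calls along the cluster was not tested. The letters GGTGGCGCT stand in the printed windows of PCDHB3, PCDHB5 and PCDHB8, called higher, as in those of PCDHB2, PCDHB10 and PCDHB13, called lower.

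In the gamma cluster the lead passed from PCDHGB7 in primed to PCDHGA6 in naive libraries. PCDHGB7 was at 1.75, 1.31, 1.52 and 2.25 CPM in naive and 30.1 and 35.1 CPM in primed libraries, the highest primed CPM of all 54 members. The log2 fold change of PCDHGB7 was -4.25 (SE 0.21, edgeR adjusted p = 3.56e-09). PCDHGA6 was at 13.7, 22.8, 18.9 and 16.5 CPM in naive and 3.49 and 6.19 CPM in primed libraries, which gave a log2 fold change of 1.89 (SE 0.25, edgeR adjusted p = 6.17e-05). It had the highest CPM of all members in each naive library. Of the gamma counts PCDHGA6 held 23.1%, 27.6%, 25.6% and 25.4% in naive and 3.33% and 5.12% in primed libraries, and PCDHGB7 held 2.95%, 1.59%, 2.07% and 3.47% in naive and 28.7% and 29% in primed libraries. The own exons of PCDHGA6 and PCDHGB7 are of nearly equal length (2617 and 2598 bases) and both genes use the same shared exons. Per kb of own exon, with any reads counted in shared exons included, PCDHGB7 stood at 0.657 CPM in naive and 12.6 CPM in primed cells and PCDHGA6 at 6.87 and 1.85 CPM. The own exon of PCDHGA6 lies at chr5:141373891-141376507 and that of PCDHGB7 at chr5:141417677-141420274.

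**Figure D4:**
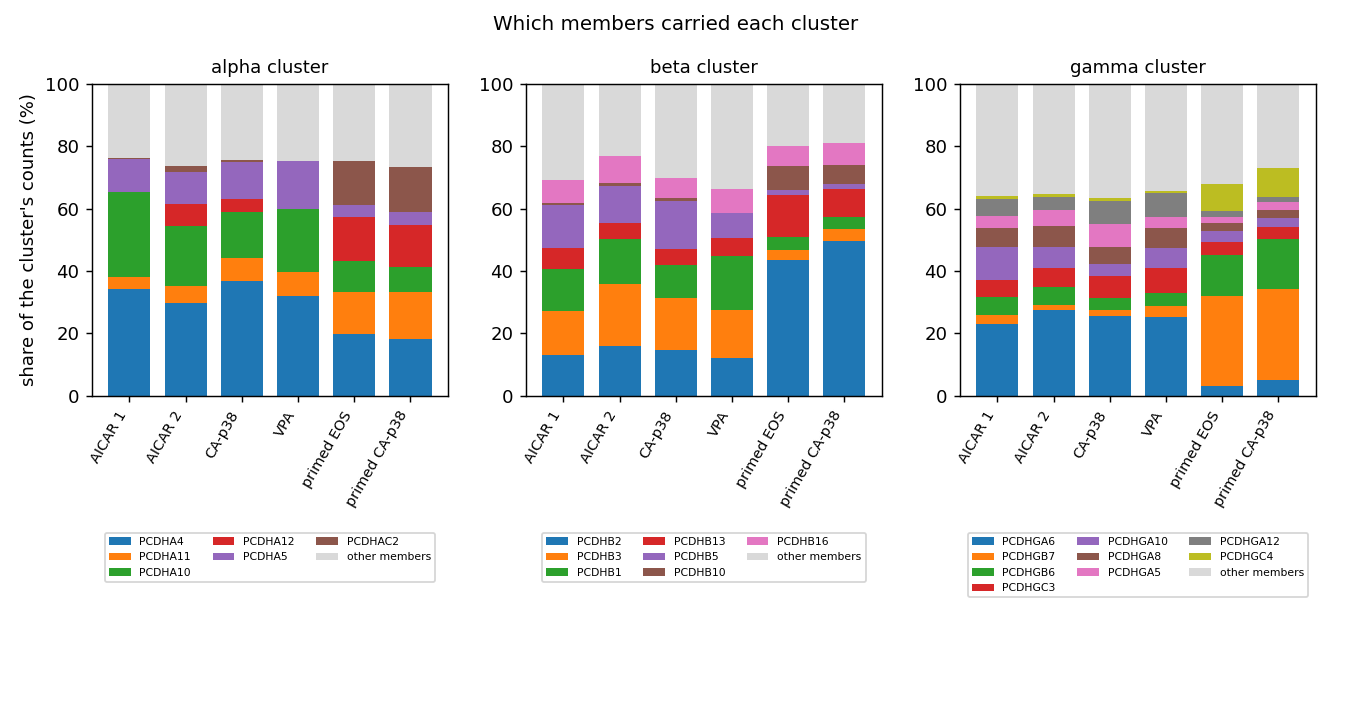
Share of each cluster's counts (vertical axis, percent) held by its 4 leading members and by every gene among the leading 3 of any library, with the remaining members in grey. PCDHB2 (blue, beta panel) took 43.5% and 49.5% in primed against at most 15.9% in naive libraries. In the gamma panel the largest share was that of PCDHGB7 (orange) in primed and of PCDHGA6 (blue) in naive libraries.

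PCDHGA12 was the other gamma gene called higher in naive cells, at 3.20, 3.42, 5.32 and 4.87 CPM in naive and 1.84 and 1.86 CPM in primed libraries. Both AICAR libraries were below CA-p38 and VPA, and the log2 fold change was 1.18 (SE 0.30, edgeR adjusted p = 0.00586). PCDHGB6 was at 3.38, 4.75, 2.75 and 2.64 CPM in naive and 13.8 and 19.4 CPM in primed libraries, which gave a log2 fold change of -2.30 (SE 0.26, edgeR adjusted p = 6.42e-06). PCDHGB6 was the second most abundant gamma gene in both primed libraries. PCDHGA1, PCDHGA3, PCDHGB1 and PCDHGA9 were also called lower, with log2 fold changes from -2.64 (PCDHGB1) to -0.93 (PCDHGA9), and PCDHGA9 lost its call without either primed library.

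The gamma C-type genes did not behave as 1 group. PCDHGC3, a member that many tissues express, was at 3.27, 4.83, 5.22 and 5.31 CPM in naive and 4.42 and 4.62 CPM in primed libraries. The groups overlapped, with a log2 fold change of 0.04 (SE 0.26, edgeR adjusted p = 0.902). PCDHGC4, which neurons require for their survival in mice, was at 0.497, 0.785, 0.831 and 0.516 CPM in naive and 9.23 and 11.5 CPM in primed libraries, which gave a log2 fold change of -3.98 (SE 0.29, edgeR adjusted p = 1.13e-07). PCDHGC5 was at 0.239, 0.443, 0.297 and 0.286 CPM in naive and 2.56 and 2.94 CPM in primed libraries, which gave a log2 fold change of -3.12 (SE 0.39, edgeR adjusted p = 1.32e-05). For PCDHGC4 and PCDHGC5 all naive values lay far below both primed values. Together with PCDHAC1 and PCDHAC2, 4 of the 5 C-type genes were called lower and each by at least 4-fold. Over all 26497 genes tested, 27% were called lower, and 2309 genes by at least 4-fold. PCDHAC2 passed the filter only through the primed libraries, so hardly any call but lower was possible for it. The 12 gamma genes that were not called, PCDHGC3 included, had log2 fold changes from -0.59 (PCDHGA7) to 0.72 (PCDHGB4).

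Taken over all members, the pattern was alike within a state and different between states, which was less clear within the alpha cluster. Over the 54 members the rank correlation of levels was 0.91 to 0.94 between naive libraries (6 pairs), 0.94 between the primed libraries and 0.23 to 0.39 between a naive and a primed library (8 pairs). These are descriptions over genes, which share libraries, depth and, within the alpha and gamma clusters, exons. By cluster, correlations between a naive and a primed library were 0.22 to 0.69 for alpha, 0.33 to 0.57 for beta and -0.13 to 0.21 for gamma genes. Between naive libraries they were 0.62 to 0.91 for alpha, 0.91 to 0.98 for beta and 0.78 to 0.91 for gamma genes. For alpha genes these ranges overlapped, as AICAR 2 correlated at 0.62 with AICAR 1 and at 0.69 with primed EOS.

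Naive libraries differed most in the alpha cluster. Of the 16 alpha genes, 6 (PCDHA1, PCDHA3, PCDHA7, PCDHA12, PCDHA14 and PCDHAC2) had a naive count at least 10 times that of another naive library, with a count of 0 set to 1, against 1 of 16 beta genes (PCDHB10) and 0 of 22 gamma genes. Levels were low for these genes, and counting error is large at such counts. VPA had the lowest value for PCDHA1 (4 counts against 30 to 49), PCDHA7 (2 against 14 to 25), PCDHAC1, PCDHAC2 and PCDHB10. The AICAR libraries differed from each other too, with 3 counts of PCDHA3 in AICAR 1 and 54 in AICAR 2, and 0 and 77 counts of PCDHA12. The median range over the naive libraries was 0.69 for alpha, 0.58 for beta and 0.61 for gamma genes on the log2(CPM + 0.5) scale, against 0.47 for all genes tested. With 1 or 2 libraries per induction method, no test between methods was made.

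Genes linked to promoter choice and silencing of the clusters were described from lists written with earlier results of these data known. For these and the lists and neighbours that follow, the shares over all genes were 26% called higher and 27% called lower. Of 12 genes of CTCF and cohesin looping, 8 were called lower and 0 higher in naive, and the median log2 fold change was -0.70. CTCF itself was at 103, 82.1, 98.5 and 92.1 CPM in naive and 134 and 170.3 CPM in primed libraries, which gave a log2 fold change of -0.70 (SE 0.13, edgeR adjusted p = 0.000393). The lowest folds were those of PDS5B and SMC3, both part of or bound to the cohesin ring, at -1.49 and -1.32, while the cohesin subunit SMC1A was not called at 0.03. Of 14 genes of DNA methylation and silencing, 3 were called higher (DNMT3L, TET1 and TET2) and 6 lower. Among the latter were the DNA methyltransferases DNMT3B (log2 fold change -1.95, SE 0.11) and DNMT1 (-1.70, SE 0.11). SMCHD1, a chromatin protein that represses protocadherin genes, had a log2 fold change of -0.28 (SE 0.11) and was not called (edgeR adjusted p = 0.0516).

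Of 12 proteins that bind the intracellular domains or act below them, 9 were called lower and 1 higher. The lowest folds were those of SORBS2 (-3.96, SE 0.24) and of WASF1, a subunit of the WAVE complex that drives actin branching (-3.93, SE 0.21), and the tyrosine kinase RET was the one called higher (1.13, SE 0.21). The 12 protocadherins outside the clusters had 8 genes called lower and 2 higher. Their median log2 fold change was -3.07, and their summed level was 38 to 58.4 CPM in naive and 291 and 351 CPM in primed libraries. PCDH12 and PCDH20, both called lower, passed the filter only through the primed libraries, so hardly any call but lower was possible for them. PCDH20 had 0 counts in every naive library, so the size of its fold, which enters the median, is not settled. PCDH1 and PCDH18 made up most of the primed sum, and PCDH9 and PCDH17 were the genes called higher. Classical cadherins did not share this direction, with 4 higher, 4 lower and 4 not called of 12 tested. CDH1, the epithelial cadherin of stem cell colonies, was higher (log2 fold change 2.38, SE 0.11) and CDH2, the neural cadherin, lower (-7.04, SE 0.25).

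Neighbours of the clusters were examined within 200 kb. Of 9 protein-coding genes tested before the alpha cluster, 5 were called higher, 1 lower (TMCO6) and 3 in neither direction (IK, HARS1 and ZMAT2). Among those called higher was CD14, with 0 counts in both primed libraries, for which hardly any call but higher was possible. All 5 tested after the gamma cluster were called lower, and they were DIAPH1 (-1.48), HDAC3 (-1.24), RELL2 (-1.63), FCHSD1 (-0.73) and ARAP3 (-4.09). TAF7, a subunit of the general transcription factor TFIID whose gene lies between the beta and gamma clusters, was lower with a log2 fold change of -0.50 (SE 0.10, edgeR adjusted p = 0.000804). The split by side of the locus was made after the values had been seen. Among 5 pseudogene names of the clusters, PCDHB18P (2.71, SE 0.76) and PCDHGB8P (1.75, SE 0.46) were called higher, 2 were not called and 1 was not tested.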

How the data were processed

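Poly(A) RNA of 6 libraries was sequenced. The authors trimmed reads with cutadapt 1.15 under Trim Galore 0.4.4, mapped them with Bowtie2 to Ensembl transcripts (GRCh38, release 100, coding and noncoding) and summed alignments per gene from a mapping quality of 1 upwards. What they deposited is 1 whole-number count per gene identifier and library, not normalized. Of 61222 features, 61196 are genes, and the 26 spike-in sequences were dropped. Its 23 columns of other studies were not used. Counts of identifiers that share a name were summed, and each member has 1 identifier.

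The states were compared on the whole table in R 4.3.3 by edgeR 4.0.16 (glmQLFit and glmQLFTest after TMM scaling and filterByExpr by state, no covariate). Adjusted p-values are Benjamini-Hochberg values over 26497 genes, with a threshold of 0.05. Standard errors come from the same model, and folds with a median or a range over a list come from tested genes only. Total counts were 46823699 to 54277064 per library, TMM factors 0.936 to 1.061, and the common dispersion 0.0563. In simulated data edgeR recovered 67.7% of changes of 1 log2 unit and 99.0% of changes of 2 units, with 8 false calls among 25536 genes. The simulated dispersion was below that of the data and the changed genes were well counted. These shares therefore do not carry over to members with few counts.

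The members and lists were chosen with earlier results of these data known. Values in every library are given for the 4 members of each cluster with the highest mean CPM, the C-type genes, and up to 2 called members per cluster with the highest and the lowest fold at a mean of 0.5 CPM or more. PCDHA9 and PCDHB6 were added after their values had been seen. Alternatives were the scaling, DESeq2 1.42.0, limma-voom (limma 3.58.1), the filter on low counts, identifiers kept apart, each library left out, both AICAR libraries as 1 sum, and a block for the parental line. Annotation came from GENCODE release 44 and promoters from RefSeq. Other steps ran in Python 3.11.15 (pandas 2.3.3, numpy 2.4.6, scipy 1.17.1, matplotlib 3.10.9).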

Additional observations from a re-analysis of the deposited data

Results flagged for a closer look

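In 2 of 56 sets of 4 naive values (53 tested members and the 3 cluster sums), 1 library stood apart from the other three by Dixon's criterion, where chance marks about 1 set in 20. PCDHB11 was at 1.79 CPM in VPA and at 0.570 to 0.712 CPM in the other naive libraries. PCDHB16 was at 3.94 CPM in AICAR 2 and at 2.56 to 2.73 CPM in the others. Neither gene was called between the states. A difference of the naive to primed change between the EOS and CA-p38 EOS lines was tested with an interaction term, chosen after the data had been seen. It was called for 0 of 53 members by edgeR's quasi-likelihood test and for 0 by limma-voom, against 1 and 0 of all 26497 genes, so the count of 0 tells nothing particular about the members. An unadjusted p under 0.05 was found for 1 member (PCDHGB4) in both fits, and for 853 and 556 of all genes. The CA-p38 line has 1 naive and 1 primed library.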

How the results depend on the processing

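Of 585 values recomputed under alternatives, 571 stayed within their spread or kept their direction and call, and none changed direction with a call. Part of these could not move. Shares within a library do not depend on the scaling, and each member has 1 identifier, so settings on identifiers left its counts unchanged. A filter of at least 10 counts in every library kept 5 alpha, 12 beta and 22 gamma genes and by its construction removed genes low in naive. Under it 4 alpha members and 15 of all members were called lower, and the median log2 fold change was -1.13 for alpha, 0.32 for beta and -0.19 for all members. The 4 leading alpha members, without PCDHA12, then held 75.7%, 74.9%, 74.0% and 67.1% of the naive and 87.7% and 86.4% of the primed alpha counts, against 65.2%, 61.6%, 63.0%, 59.9%, 57.2% and 54.8% with all members. The leading beta members held 71.1% and 72.4% of the primed counts, against 64.4% and 66.3%. Leaving out each library in turn gave 10 to 15 alpha members called lower, the lowest without primed CA-p38, 3 or 4 beta and 7 or 8 gamma members lower, and 0, 4 and 2 or 3 higher. Without a primed library, the lone one left is assumed to vary like the naive ones. Medians ran from -2.91 to -2.26, -0.34 to 0.23 and -0.13 to -0.02. Of 33 called members, 25 kept their call wherever they were tested. The other 8 were PCDHA1, PCDHA3, PCDHA5, PCDHA7, PCDHA12, PCDHA14, PCDHB14 and PCDHGA9, and PCDHGB4 was called higher without primed EOS. With the parental line as a block, PCDHA1 lost its call and no other call changed. No paired analysis by replicate number was possible because the numbers only name the libraries. At these depths, members under about 10 counts in a library are limited by counting error.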
